A study of Mus musculus with 4 samples.

Results

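Immunoglobulin transcripts of early B cells were examined through 10 genes of the heavy chain and kappa light chain loci: the unswitched constant regions Ighm, Ighd and Igkc, the heavy J segments Ighj1, Ighj2, Ighj3 and Ighj4, and the kappa J segments Igkj1, Igkj2 and Igkj5. They were taken by symbol from 55573 gene identifiers, 6 from the heavy locus and 4 from the kappa locus, and all 10 were found and passed the filter on low values. RNA came from bone marrow cells of C57BL/6 mice aged 8 to 12 weeks, sorted as Fr.C+C' B cells, the stages at which the heavy chain locus is being completed and first used. The wild type group holds 2 libraries (WT 1, WT 2) and the group labelled ADAR1 KO holds 2 (KO 1, KO 2). ADAR1 edits RNA duplexes by turning adenosine into inosine. The sources used here name neither the allele nor a Cre driver, and do not say whether a group's libraries came from different mice. The p-values therefore cover only the spread from library to library, which can be technical.

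An antibody chain is assembled from gene segments. In the heavy locus a D segment is joined to a J segment and then a V segment to that D and J, and in the kappa locus, which usually rearranges later, a V segment is joined directly to a J segment. The joined exon is spliced in RNA to the constant region, so a complete transcript carries V, J and constant sequence, with Ighm and Ighd alternatives on the same heavy chain precursor. Both loci are also transcribed in germline form, before or without joining, and then J segments that have not been used can stay in RNA. In pro-B and pre-B cells the mu heavy chain pairs with the surrogate light chain, and kappa joining follows.

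The heavy J segments are exons of 48 to 54 nt, shown here because each J value below rests on fragments over these few bases. They are GENCODE M21 transcripts, with capitals on the letters TGGGGNNNNGGNAC, codons of the conserved tryptophan, glycine, any residue, glycine and threonine.
Ighj1: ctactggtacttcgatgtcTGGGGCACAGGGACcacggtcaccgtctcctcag
Ighj2: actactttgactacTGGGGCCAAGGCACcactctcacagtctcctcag
Ighj3: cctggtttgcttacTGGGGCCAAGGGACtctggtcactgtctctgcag
Ighj4: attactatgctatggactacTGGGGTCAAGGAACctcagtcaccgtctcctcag
The stretch was found in 4 of 4 heavy J transcripts, in 0 of 5 kappa J transcripts and in 7.14% of 84 immunoglobulin and T cell receptor J transcripts, and on the reverse strand in none of the 84.

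The kappa J segments are shorter, at 38 or 39 nt, and their counterpart stretch is TTCGGNNNNGGNAC, in capitals below, with phenylalanine (codon TTC) in place of tryptophan. The deposited values of Igkj2 and Igkj5 refer to 43 and 42 nt, because a second annotated model of each runs slightly past the J exon. Igkj3 and Igkj4 are added to the members so that the whole kappa J cluster can be read.
Igkj1: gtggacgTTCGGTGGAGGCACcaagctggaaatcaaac
Igkj2: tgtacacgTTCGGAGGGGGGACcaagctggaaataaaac
Igkj3: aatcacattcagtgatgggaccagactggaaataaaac
Igkj4: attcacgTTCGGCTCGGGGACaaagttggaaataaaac
Igkj5: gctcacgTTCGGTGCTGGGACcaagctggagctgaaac
The letters were found in 4 of 5 kappa J transcripts, all but Igkj3, in 0 of 4 heavy J transcripts and in 22.6% of the 84 J transcripts, with none on the reverse strand. Igkj3 is generally regarded as a J segment that does not take part in functional kappa chains.

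Both clusters lie on the GRCm38 assembly upstream of their constant regions. On the minus strand of chromosome 12, Ighj1 (113429781 to 113429833), Ighj2 (113429468 to 113429567), Ighj3 (113429085 to 113429132) and Ighj4 (113428514 to 113428567) precede Ighm (113418558 to 113422730) and Ighd (113406604 to 113416324). Between Ighj4 and Ighm lie 5783 bases, and between Ighm and Ighd 2233. On the plus strand of chromosome 6, Igkj1 (70722562 to 70722599), Igkj2 (70722916 to 70722958) and Igkj5 (70723886 to 70723927) precede Igkc (70726435 to 70726966), with 2507 bases between Igkj5 and Igkc. Ighm and Ighd have exon lengths of 1886 and 1900 nt, and each is given as a single value for its membrane and secreted forms.

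Ighj2 is a special case, since its annotated length of 100 nt joins the J exon of 48 nt to a second model that covers the bases just upstream. That upstream model is shown because its length enters the deposited value.
Ighj2 upstream model: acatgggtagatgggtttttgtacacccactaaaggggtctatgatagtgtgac
If every Ighj2 fragment lay within the 48 nt exon, its level would be 91.0 and 90.1 FPKM in WT 1 and WT 2 and 113 and 117 FPKM in KO 1 and KO 2, in place of the deposited values below.

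Before the levels, the libraries and the sort were checked. Each library held between 15107346 and 16402814 estimated fragments. Adar, the targeted gene, stood at 15.04 and 14.62 FPKM in WT 1 and WT 2 and at 15.19 and 16.79 FPKM in KO 1 and KO 2, a whole-gene value that does not check the loss of single exons, so directions below are those of libraries as labelled. Transcripts of the gated stage were present in every library, with Rag1 between 35.27 and 68.02 FPKM and Vpreb1 between 155.96 and 260.89 FPKM. Neutrophil transcripts were abundant as well: 16 of 16 markers were detected in every library, their summed FPKM was 28996 and 27021 in wild type and 37524 and 76838 in the KO-labelled libraries, and for 13 of 16 KO 1 and KO 2 were each above WT 1 and WT 2. The 16 B lineage identity markers summed to 2884 and 3062 FPKM in wild type and to 2222 in KO 1 and 1264 in KO 2, and for 11 of 16 KO 1 and KO 2 were each below WT 1 and WT 2. The 10 erythroid markers summed to 1402 and 804 FPKM in wild type and to 375 and 695 FPKM in KO 1 and KO 2, with 7 of 10 lower in each KO-labelled library than in either wild type library. Of all genes tested, 19.7% had both KO-labelled libraries above both wild type libraries and 31.7% had both below. Fewer B cells and less RNA per B cell cannot be told apart in these bulk libraries, and how far the mixture of cells enters the levels of single members was not tested.

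The constant regions were the most abundant members. Ighm, which encodes the mu heavy chain of IgM and of the pre-B cell receptor, stood at 1385.13 FPKM in WT 1, 1721.93 in WT 2, 1151.36 in KO 1 and 502.56 in KO 2, or 1554 ± 238 against 827 ± 459 FPKM (SD, n = 2). Both KO-labelled libraries lay below both wild type libraries, KO 1 by little and KO 2 by much. The wild type mean was 1.35-fold the level of KO 1 and 3.09-fold the level of KO 2. About 41289, 53314, 34406 and 14334 fragments supported these values, so counting error is small beside the gap between KO 1 and KO 2.

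Igkc, the only constant region of the kappa light chain, showed the widest gap between the groups. Its level was 1727.77 FPKM in WT 1 and 1697.43 FPKM in WT 2, then 312.56 FPKM in KO 1 and 111.12 FPKM in KO 2, or 1713 ± 21.5 against 212 ± 142 FPKM (SD, n = 2). WT 1 and WT 2 were close to each other, and each KO-labelled library lay far below them, by 5.48-fold in KO 1 and 15.4-fold in KO 2. Among all genes of a library ordered by FPKM, Igkc stood 11th in WT 1, 12th in WT 2, 95th in KO 1 and 336th in KO 2, whereas Ighm stood 14th, 11th, 19th and 49th.

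Ighd, which encodes the delta heavy chain that maturing B cells display beside IgM, was the least abundant constant region at 48.16, 51.23, 27.35 and 7.93 FPKM across WT 1, WT 2, KO 1 and KO 2. The means were 49.7 ± 2.17 and 17.6 ± 13.7 FPKM (SD, n = 2), and the groups did not overlap. KO 2 held about 228 Ighd fragments, against 1446 and 1598 in the wild type libraries.

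**Figure D1:**
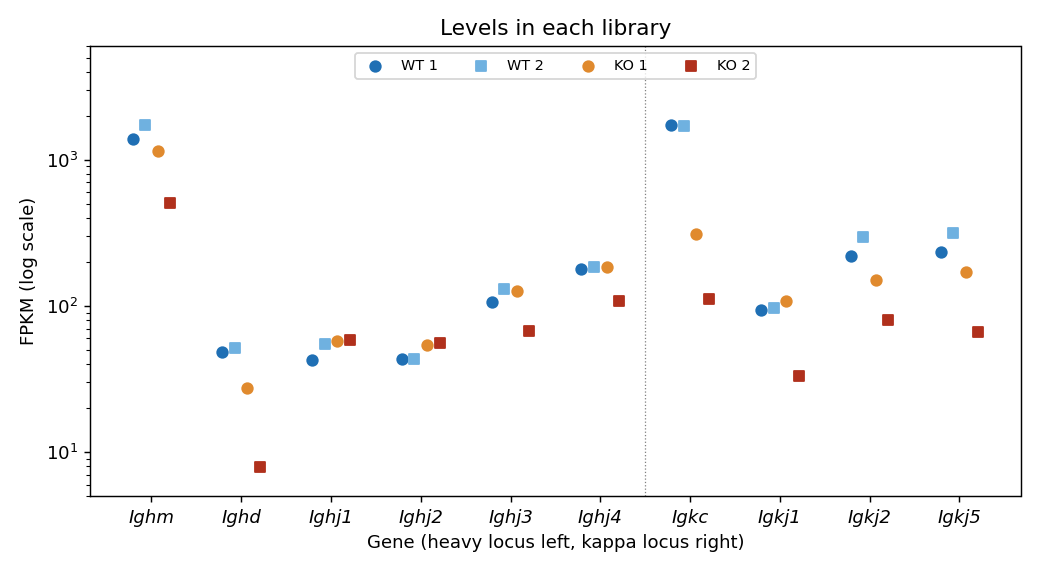
FPKM of the 10 genes on a log axis, with a point for each library: WT 1 in dark blue, WT 2 in light blue, KO 1 in orange and KO 2 in red. Igkc shows the widest gap, from about 1713 FPKM in wild type to 312.56 and 111.12 FPKM, while Ighj1 and Ighj2 have both KO-labelled libraries slightly above wild type.

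The heavy J segments had a different arrangement from Ighm. Ighj1, the segment farthest from Ighm, was at 42.98 and 55.17 FPKM in wild type, 57.17 in KO 1 and 58.64 in KO 2. Ighj2 was at 43.66 and 43.25 FPKM in wild type, 54.29 in KO 1 and 56.21 in KO 2. For these 2 segments KO 1 and KO 2 were each above WT 1 and WT 2, by 1.18-fold and 1.27-fold on the means. For Ighj1 the gap is within counting error: 48 fragments in WT 2 carry a 95% exact Poisson interval of 35.4 to 63.6, and KO 1 and KO 2 held 48 and 47. Ighj2 rests on 69 fragments in WT 1 (53.7 to 87.3) and 71 in WT 2 (55.5 to 89.6). KO 1 held 86 (68.8 to 106) and KO 2 held 85 (67.9 to 105), so these intervals overlap too. Ighj3 was at 106.79, 130.71, 127.57 and 67.50 FPKM, and Ighj4, the segment nearest to Ighm, at 178.13, 186.12, 183.54 and 107.76 FPKM across WT 1, WT 2, KO 1 and KO 2. For Ighj3 and Ighj4 KO 1 lay between the wild type libraries and only KO 2 was lower, so the groups overlap. The summed heavy J level was 393 ± 30.9 FPKM in wild type and 356 ± 93.7 FPKM in the KO-labelled group (SD, n = 2).

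The kappa J segments lay lower in KO 2 throughout and were mixed in KO 1. Igkj1, the segment farthest from Igkc, was at 93.26 and 96.18 FPKM in wild type, 107.98 in KO 1 and 33.06 in KO 2, so KO 1 was above both wild type libraries and KO 2 below. Igkj2 was at 220.75, 296.06, 149.75 and 79.96 FPKM, and Igkj5, the segment nearest to Igkc, at 233.54, 314.72, 169.85 and 66.12 FPKM across WT 1, WT 2, KO 1 and KO 2. Both KO-labelled libraries were below both wild type libraries for Igkj2 and Igkj5. Igkj1 in KO 2 rests on 19 fragments, with an exact Poisson interval of 11.4 to 29.7, and Igkj5 there on 42 (30.3 to 56.8). The sum of the 3 segments was 627 ± 113 FPKM in wild type and 303 ± 176 FPKM in the KO-labelled group (SD, n = 2).

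Igkj3, the segment without the conserved letters, was not silent in the RNA. Its level was 193.18, 198.77, 134.57 and 46.98 FPKM across WT 1, WT 2, KO 1 and KO 2, above Igkj1 in every library. Igkj4 was at 213.16, 299.75, 217.63 and 74.82 FPKM. For Igkj3 the groups did not overlap (log2 change -1.29 ± 0.49, adjusted p = 0.395, limma), and for Igkj4 KO 1 lay between WT 1 and WT 2.

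The comparison of libraries labelled ADAR1 KO with wild type was tested with limma on log2(FPKM + 1) over the 13281 genes whose mean reached 1 FPKM in wild type or KO-labelled libraries. Of the 10 members 0 passed at an adjusted p under 0.05 (limma, Benjamini-Hochberg), where 0.203% of all genes tested did, 27 lower and 0 higher. With each library scaled to B lineage identity genes the split over all genes was 51 lower and 35 higher. At an unadjusted p under 0.05 there were 4 of 10 members (Igkc, Ighd, Igkj2 and Igkj5) and 1656 of all genes. The log2 change was negative for 8 of 10 members and for 61.7% of all genes, with medians of -0.84 and -0.09. Both KO-labelled libraries lay below both wild type libraries for 5 of 10 members, against 31.7% of all genes, and above both for 2 of 10, against 19.7%. The constant regions had a median log2 change of -1.67, the kappa J segments of -1.22 and the heavy J segments of -0.05.

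Igkc had the most negative log2 change of the 10, -3.19 ± 0.50 (SE; 95% interval -4.48 to -1.90, adjusted p = 0.187, limma). Ighd followed with -1.67 ± 0.54 (adjusted p = 0.370, limma), then Igkj5 with -1.35 ± 0.47 (0.378), Igkj2 with -1.22 ± 0.35 (0.347) and Ighm with -1.02 ± 0.45 (0.435). The interval of Ighm, -2.17 to 0.13, includes 0. Igkj1 (-0.65), Ighj4 (-0.37), Ighj3 (-0.34), Ighj1 (0.24) and Ighj2 (0.34) had intervals that all include 0, the last from -0.0043 to 0.68.

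**Figure D2:**
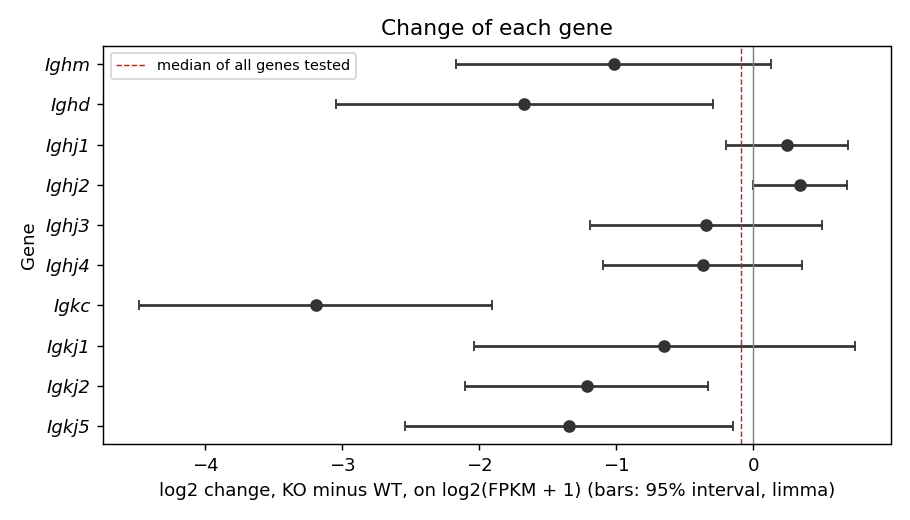
Log2 change of each gene, KO-labelled minus wild type, with the 95% interval from limma as a bar and the median of all genes tested (-0.09) as a dashed line. The interval of Igkc, -4.48 to -1.90, lies farthest from 0, and those of Ighj1 and Ighj2 are centred above 0.

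These calls turned on single libraries. Without KO 1, 6 of 10 members passed, all of them lower (Ighm, Ighd, Ighj4, Igkc, Igkj1 and Igkj5), where 7.1% of 13361 genes did, and without KO 2 neither a member nor any other gene passed. In each of these fits the lone KO-labelled library is assumed to vary like wild type, whose pair was the closer one, so the spread comes from WT 1 and WT 2 alone. Without KO 2 the log2 changes were -2.45 for Igkc, -0.84 for Ighd, -0.77 for Igkj2, -0.67 for Igkj5 and -0.42 for Ighm, and with B lineage scaling those of Ighd, Igkj2, Igkj5 and Ighm were -0.93, -0.48, -0.61 and -0.28. Igkc alone among the members also passed with each library scaled to B lineage identity genes (log2 change -2.45, adjusted p = 0.00650, limma), where 0.648% of genes passed. With this scaling the members had nearly the same SE (0.572 to 0.585), as limma pooled the spread over genes. For Igkc the SE was 0.58, against 0.50 in the main fit, so its lower adjusted p came with neither a larger change nor a smaller SE. Igkc passed as well with scaling to the heavy J sum, a setting added later (-3.03, adjusted p = 0.000799, limma), where 0.971% did. It did not pass with scaling to Ighm or to the kappa J sum, also added later (adjusted p = 0.283 and 0.328, limma). In those fits Igkc had nearly the same SE as the other members. With a crossed replicate block, which was chosen after seeing the data and which no label supports, its adjusted p was 0.0105 (limma), where 1.6% of genes passed, and with the block by labelled number it was 0.0543. The median over all genes moved by 0.74 with the B lineage scaling and by 0.17 with the heavy J scaling, and with the former the log2 changes of Ighj3, Ighj4 and Igkj1 turned positive, as they did without KO 2.

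Ratios within a library do not depend on how that library was scaled, and they set the loci side by side. The Igkc to Ighm ratio was 1.25 in WT 1, 0.986 in WT 2, 0.271 in KO 1 and 0.221 in KO 2, or 1.12 ± 0.185 against 0.246 ± 0.0356 (SD, n = 2), a 4.53-fold lower ratio in the KO-labelled group. The 2 KO-labelled libraries, which differed more than 2-fold in both genes, were close to each other in this ratio. In wild type the kappa and mu constant regions were thus about equally abundant per length, and in both KO-labelled libraries mu was the more abundant.

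Within the kappa locus, the constant region also stood lower against its own J segments. The ratio of Igkc to the sum of Igkj1, Igkj2 and Igkj5 was 3.16 and 2.40 in WT 1 and WT 2 and 0.731 and 0.620 in KO 1 and KO 2, 4.11-fold lower on the means (2.78 ± 0.533 against 0.676 ± 0.0783, SD, n = 2). Each kappa J segment taken singly gave the same order: Igkj5 was at 0.135 and 0.185 of Igkc in wild type and at 0.543 and 0.595 in KO 1 and KO 2, and Igkj1 at 0.0540 and 0.0567 against 0.345 and 0.298. In wild type Igkc exceeded the J sum, and in both KO-labelled libraries it was below the sum.

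Within the heavy locus the shift had the same direction and was smaller. Ighm over the sum of the 4 heavy J segments was 3.73 and 4.15 in wild type, 2.72 in KO 1 and 1.73 in KO 2, 1.77-fold lower on the means (3.94 ± 0.296 against 2.23 ± 0.702, SD, n = 2). Ighj1 was at 0.0310 and 0.0320 of Ighm in wild type, 0.0497 in KO 1 and 0.117 in KO 2, while Ighj4 went from 0.129 and 0.108 to 0.159 and 0.214.

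At the J segments, the heavy J sum was set over the sum of Igkj1, Igkj2 and Igkj5. This ratio was 0.679 and 0.587 in wild type and 0.988 and 1.62 in KO 1 and KO 2 (0.633 ± 0.0645 against 1.30 ± 0.446, SD, n = 2). The heavy J sum was below this kappa sum in both wild type libraries and above it in KO 2. Against all 5 kappa J segments the heavy J sum was lower in every library, in KO 2 by little (290.11 against 300.94 FPKM). Ighd over Ighm, the outcome of alternative processing of a shared precursor, was 0.0348 and 0.0298 in wild type and 0.0238 and 0.0158 in KO 1 and KO 2, 1.63-fold lower (0.0323 ± 0.00355 against 0.0198 ± 0.00564, SD, n = 2). In all 5 ratios the groups did not overlap, and for each the two-sided exact permutation test over libraries gave p = 0.333 (0.333 after Benjamini-Hochberg adjustment over the 5), the smallest that 2 libraries against 2 allow. In limma over all genes, libraries were also scaled to the denominator. The adjusted p (limma) was 0.283 for Igkc over Ighm, 0.328 for Igkc over kappa J, 0.541 for Ighm over heavy J and 0.428 for Ighd over Ighm. Such scaling puts the denominator's spread into other genes, and limma pools spread over genes. The members' SE was 0.716 to 0.725 with scaling to Ighm and 0.774 to 0.788 with the kappa J sum. These p-values therefore do not measure the spread of each ratio by itself.

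**Figure D3:**
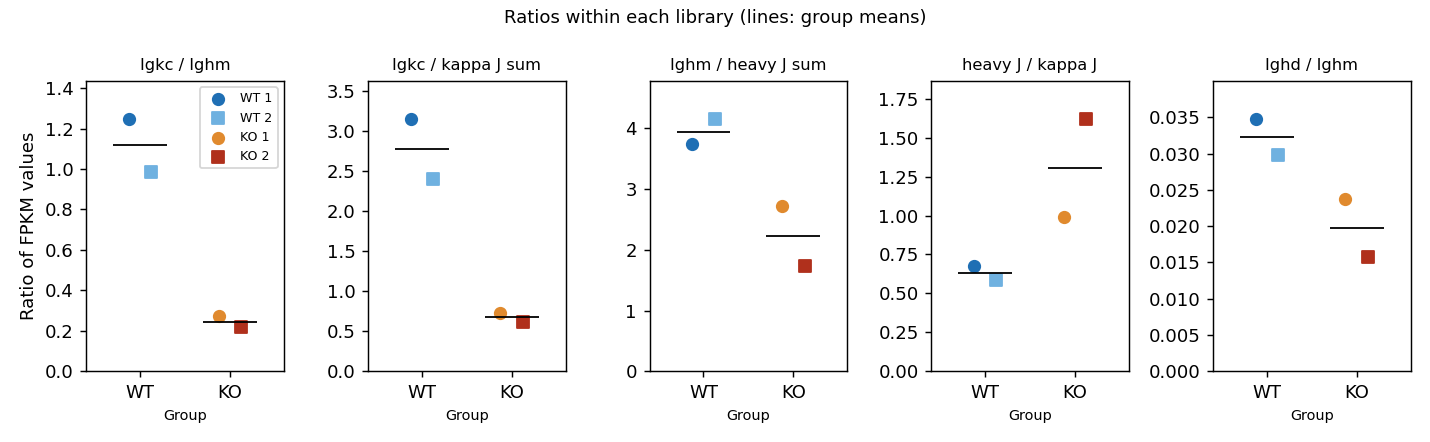
Ratios of FPKM values in each library, a panel for each ratio on its own linear axis from 0, with points for the 4 libraries and lines for the group means. Igkc over Ighm (1.12 and 0.246) and Igkc over the kappa J sum (2.78 and 0.676) show KO 1 and KO 2 close together, while in the other panels KO 2 lies farther from wild type than KO 1.

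The sources used here do not say how fragments that span a J segment and a constant exon were counted, and this bears on the size of every ratio of a constant region to J. Markers of other B lineage stages were mixed. Jchain, a gene of antibody-secreting cells, stood at 105.85 and 91.45 FPKM in wild type and 0.25 and 0.45 FPKM in the KO-labelled libraries. The 13 plasma cell markers, Jchain among them, summed to 373 and 388 FPKM in wild type. Their sums were 289 FPKM in KO 1 and 255 FPKM in KO 2. How far Jchain alone sets this gap was not tested, so the sums are not a separate sign of lower plasma cell transcripts. Of 11 tested, KO 1 and KO 2 were each below WT 1 and WT 2 for 7 and each above for 2. For Tnfrsf17 the value was 0 FPKM in KO 1 and in KO 2. Sdc1, the syndecan of plasma cells and pre-B cells, was at 11.11, 12.78, 9.70 and 3.96 FPKM across WT 1, WT 2, KO 1 and KO 2. The 14 maturing B cell markers summed to 551 and 528 FPKM in wild type, 440 FPKM in KO 1 and 564 FPKM in KO 2, so KO 2 was the highest. Of 13 tested, 6 lay below both wild type libraries and 2 above, against 31.7% and 19.7% of all genes. Of 13 pro-B and pre-B markers 2 lay below and 3 above, with a median log2 change of -0.09. The part of such cells in the Igkc values was not tested.

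The shares of the heavy J segments stood apart in KO 2. Of the fragments over the 4 heavy J segments, Ighj3 and Ighj4 together took 68.9% (95% Wilson interval 63.8 to 73.6) in WT 1, 69.3% (64.5 to 73.6) in WT 2, 65.5% (60.6 to 70.0) in KO 1 and 50.9% (45.0 to 56.8) in KO 2. The interval of KO 2 lies below those of the other libraries, which overlap each other. Ighj2 took 31.6% (26.3 to 37.4) in KO 2, against 20.4%, 18.3% and 22.2% in WT 1, WT 2 and KO 1. For this segment alone the interval of KO 1 (18.3 to 26.6) overlaps that of KO 2. These intervals cover counting error only, compare libraries and not conditions, and rest on 338, 387, 388 and 269 fragments.

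Over the 5 kappa J segments the shares were alike in most libraries. Igkj1 took 9.26% (7.20 to 11.8) in WT 1, 7.53% (5.89 to 9.57) in WT 2, 13.2% (10.5 to 16.5) in KO 1 and 10.4% (6.75 to 15.6) in KO 2. The interval of KO 1 lies above that of WT 2 and overlaps that of WT 1. Igkj5 took between 23.0% and 27.2%, and Igkj3 between 14.8% and 19.2%. Totals were 605, 797, 492 and 183 fragments.

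**Figure D4:**
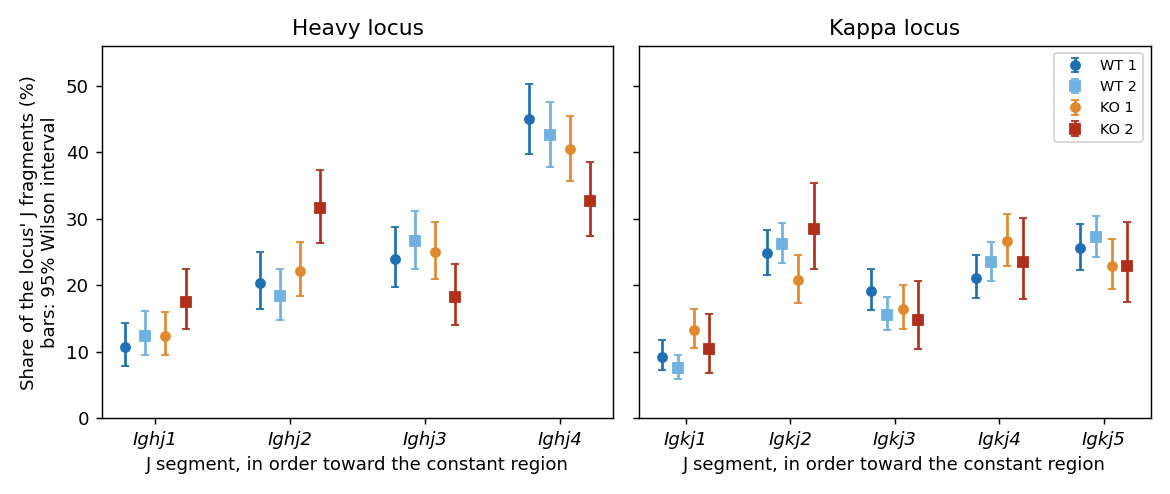
Share of the J fragments of each locus that fell on each segment, in percent, with 95% Wilson intervals as bars and a point for each library. In the heavy locus the KO 2 point (red) is above the other libraries at Ighj2 (31.6%) and below them at Ighj4 (32.7%). At both segments the interval of KO 2 overlaps that of KO 1, and at Ighj4 also that of WT 2. The kappa intervals overlap except for Igkj1 in KO 1 (13.2%) and WT 2 (7.53%).

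Per length, the order of the 10 levels changed between the groups. In WT 1 and WT 2 Igkc and Ighm came first, within their spread of each other, followed by Igkj5, Igkj2, Ighj4, Ighj3 and Igkj1, and then Ighd, Ighj1 and Ighj2, whose levels (43.0 to 55.2 FPKM) were not separated. In KO 1 and KO 2 Ighm led alone and Igkc was next, but in KO 2 Igkc (111.12 FPKM) was barely above Ighj4 (107.76 FPKM). Ighd was last in both. The 10 genes together took 0.367% and 0.430% of all estimated fragments in wild type, 0.243% in KO 1 and 0.105% in KO 2.

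Other genes of immunoglobulin assembly give the setting, from lists chosen with earlier results of these data known. Of the switched heavy constant regions and Jchain, 5 of 6 tested passed, all lower, where 0.203% of all genes tested passed. Of 3 lambda constant regions tested 0 passed. For all 3 both KO-labelled libraries lay below both wild type libraries, as they did for 31.7% of all genes. Iglc1 was at 91.86 and 41.59 FPKM in wild type and 4.31 and 2.91 FPKM in KO 1 and KO 2. Iglc3 was closer together, at 26.46, 28.57, 23.74 and 15.07 FPKM in the same order.

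Partners of the chains gave 0 of 10 past the threshold, where 0.203% of all genes passed. Their median log2 change was -0.33, against -0.09 for all genes. Cd79a, the gene of smallest p in this list, was at 436.24, 435.96, 193.59 and 96.80 FPKM across WT 1, WT 2, KO 1 and KO 2. Its log2 change was -1.66 ± 0.35 (adjusted p = 0.294, limma). Cd79b, which encodes Ig-beta of the receptor complex, was at 244.90, 276.68, 196.98 and 93.43 FPKM in the same order. Vpreb2, a surrogate light chain gene, was at 52.53, 41.49, 75.69 and 53.49 FPKM in the same order, with KO-labelled libraries above wild type. Btk, the kinase downstream of the receptor, was at 47.45, 51.98, 40.10 and 41.49 FPKM. Of 12 genes of the recombinase and end joining 0 passed and 9 had a negative log2 change, against 61.7% of all genes. Lig4, the ligase that seals the joined ends, was at 12.91, 16.65, 11.60 and 6.56 FPKM.

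Among 25 factors that bind the heavy and kappa loci 0 passed, 11 lay below both wild type libraries and 5 above, against 31.7% and 19.7% of all genes, with a median log2 change of -0.35. Pou2f2, which encodes the octamer binding factor Oct-2, was at 7.98 and 7.91 FPKM in wild type and 4.81 and 4.01 FPKM in KO 1 and KO 2 (log2 change -0.73 ± 0.15, adjusted p = 0.293, limma). Ikzf3, which encodes Aiolos, was at 23.16, 27.17, 19.39 and 9.27 FPKM, and Mef2c at 9.90, 11.12, 8.53 and 5.43 FPKM across WT 1, WT 2, KO 1 and KO 2. Spi1, which encodes PU.1 and is also high in myeloid cells, was at 56.12 and 48.98 FPKM in wild type and 72.59 and 109.53 FPKM in KO 1 and KO 2.

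The genes whose levels over the 4 libraries were most like those of Ighm and Igkc were found by Euclidean distance between centred log2(FPKM + 1) profiles among 7436 genes averaging 5 FPKM or more, leaving out antigen receptor segments, noncoding RNAs and unnamed gene models. For Ighm these were S1pr1 (distance 0.0598), Cd22 (0.0611), Ddah2 (0.110), Spib (0.115) and Bach2 (0.117). Cd22, an inhibitory receptor of B cells, was at 32.56, 38.32, 26.19 and 10.77 FPKM across WT 1, WT 2, KO 1 and KO 2, and S1pr1, a receptor that guides lymphocyte exit, at 7.50, 9.96, 6.45 and 2.24 FPKM. For Igkc the nearest gene was Fcmr (0.189), which encodes the Fc receptor for IgM, at 16.66, 19.02, 2.80 and 0.30 FPKM in the same order. Ms4a1 (0.793), Cd79a (1.57), Cpm (1.89) and Btla (1.91) came next at much greater distances. In KO 2 Fcmr and Ms4a1 lay below the added 1 of log2(FPKM + 1), which understates their drop and enters their distances. With 4 libraries such a likeness is a description of these profiles only.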

How the data were processed

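RNA of sorted bone marrow cells was sequenced in 4 libraries. The authors deposited FPKM values (fragments scaled to exon length and library size), per the file headers. The values carry 2 decimals. The submitters' processing notes name mm9. Not given in the sources used here are aligner, counting program and strand. Symbols, exon lengths, coordinates (GRCm38) and sequences came from GENCODE M21, matching 55394 of 55573 identifiers. Fragments were estimated from the steps of low FPKM values: 99.6% to 99.8% of 1810 to 2048 values per library were whole within 0.15 fragments. Library pairs of a group differed by more than counting noise (ratio of chi-square to its degrees of freedom 8.41 and 61.4).

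Groups were compared with limma 3.58.1 (R 4.3.3) with a mean-variance trend on log2(FPKM + 1), for genes whose mean reached 1 FPKM in either group, adjusted by Benjamini-Hochberg at 0.05. The pseudocount understates changes of low genes. The fit was tested on simulated data. Ratios used FPKM and an exact permutation test. Alternatives changed the pseudocount, filter, scaling, block or libraries. The members, gene lists and tests were chosen with earlier results of these data known. Named genes were the 10 members, up to 4 genes of smallest p per list, and the 5 most similar profiles for Ighm and for Igkc with a mean of at least 5 FPKM. The replicate numbers are not stated to pair libraries.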

Additional observations from a re-analysis of the deposited data

How the results depend on the processing

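Counts of called genes depended on the setting. Against 27 lower and 0 higher genes, limma gave 15 lower with a pseudocount of 0.1, 0 lower with no filter, 1 higher with a filter of 5 FPKM, 51 lower and 35 higher with scaling to B lineage identity genes, and 61 lower and 7 higher with the replicate block. Leaving out a library in turn gave 0 to 385 lower and 0 to 563 higher: 385 and 563 without KO 1, none without KO 2, and 14 lower without WT 1. Deviations of same-numbered libraries had a correlation of -0.15, so a crossed pairing, added after seeing the data, was tried and gave 167 lower and 46 higher. The replicate block changed no call of a member; the crossed one brought Igkc past the threshold. The log2 changes of Ighj3, Ighj4 and Igkj1 reversed with B lineage scaling (0.39, 0.37 and 0.088) and without KO 2. Without each library in turn they ranged from -0.80 to 0.11, from -0.75 to 0.011 and from -1.49 to 0.19. The cause was not tested. Of the other 7 members 6 kept their sign in every setting, and Ighm did except when libraries were scaled to Ighm itself (0.0011) or to the kappa J sum (0.15). The 5 ratios kept theirs under leave-one-out, estimated fragments, the median of J segments and the settings added later (all 5 kappa J segments, no Ighj2, limma scaling). Without each library in turn the log2 difference was -2.35 to -2.01 for Igkc over Ighm, -2.23 to -1.83 for Igkc over kappa J, -1.18 to -0.53 for Ighm over heavy J, 0.65 to 1.36 for heavy over kappa J and -1.03 to -0.44 for Ighd over Ighm. The J segments rest on 19 to 217 fragments each, which limits their precision.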

Other observations

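Other annotated features of both loci were measured as well, and those named here were chosen after their values were seen. Gm22175 (GRCm38 chromosome 12, 113425150 to 113425227), a short annotated RNA in the interval between Ighj4 and Ighm, was at 52.74, 77.31, 105.22 and 19.50 FPKM across WT 1, WT 2, KO 1 and KO 2, so KO 1 was above both wild type libraries and KO 2 below. Gm30211 (chromosome 6, 70719074 to 70740554), a long noncoding RNA gene on the same strand whose introns hold the kappa J segments and Igkc, was at 19.70, 29.47, 23.22 and 8.34 FPKM, with KO 1 between the wild type libraries. Ighd4-1, the D segment nearest to the heavy J segments, was at 57.53, 77.53, 126.26 and 72.14 FPKM, which at 11 nt is 10, 14, 22 and 12 fragments. All 20 D segments together held 31, 27, 51 and 21 fragments. Of 16 tested D, lambda J and other kappa J segments 0 passed in limma, and 3 had an unadjusted p under 0.05 (Iglj3p, Igkj3 and Ighd2-7). Iglj3p was at 9.99, 11.22, 1.66 and 3.48 FPKM and Ighd2-7 at 3.72, 10.75, 14.85 and 15.56 FPKM in the same order.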
